A study of Trametes versicolor with 17 samples.

Results

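The laccase genes TvLac7, TvLac3 and TvLac1 of the white-rot fungus Trametes versicolor were followed across all libraries of the study. They were taken by their gene identifiers in the count tables, gene_6456 (TvLac7), gene_256 (TvLac3) and gene_472 (TvLac1), and are 3 of 14296 gene models and 3 of the 7 laccases with a TvLac symbol. The study measured polyA RNA of mycelial pellets in 17 libraries and 6 groups, all of wild-type mycelium with the genotype label ASM 8036. All pellets grew in 2% malt extract medium at 28 °C and 135 rpm. The medium of the treated pellets also held 5% of an aqueous phase from hydrothermal liquefaction, which is the water left when wet biomass is turned into oil under heat and pressure. The waste that was liquefied was food (FW), salad dressing (SD) or algal biomass (AB). After 3 days there were 3 libraries each of control, FW, SD and AB pellets, in the batch labelled main. After 7 days there were 2 control and 3 AB libraries, in the batch labelled preliminary, so that time and batch cannot be told apart between these sets.

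Laccases are secreted multicopper oxidases that take electrons from phenols and pass them to oxygen, and in white-rot fungi they act in the breakdown of lignin and of phenolic pollutants. Such fungi carry several laccase genes, and laccase transcripts of Trametes are known to respond to copper, to aromatic compounds and to the nitrogen supply. The multicopper oxidase family also holds Fet3, the iron oxidase of high-affinity iron uptake in Saccharomyces cerevisiae.

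The main libraries held 15459249 to 18770043 counts and the preliminary ones 27654678 to 35223283. Levels are given as CPM, the counts of a gene per 1000000 counts of its library, on library sizes scaled by TMM, a method that sets the bulk of genes equal between libraries, within each batch. On a scale shared by all libraries the 3-day values would be 0.895 to 0.916 times, and the 7-day values 1.25 to 1.28 times, those printed. No library stood apart in depth, but for TvLac3 and TvLac1 the replicate 2 libraries of control and SD at 3 days, and to a smaller extent those of FW, lay far from the others, as set out beside each result. A gene was called at a Benjamini-Hochberg adjusted p of 0.05 in edgeR's quasi-likelihood test over all genes tested. Shares of all genes called are shares of the genes tested in that comparison. These were 10838 at 3 days, 10192 at 7 days and 11057 for the difference between the times. SE is the standard error of a log2 fold change.

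The gene model of TvLac7 (TRAVEDRAFT_47314) lies on the plus strand of scaffold 6, from 160728 to 162937, with 13 exons and 1548 exonic bases. TvLac3 (TRAVEDRAFT_138261; 764748 to 766821, 9 exons, 1642 bases) and TvLac1 (TRAVEDRAFT_68023; 1409247 to 1411468, 11 exons, 1659 bases) both lie on the plus strand of scaffold 1. None of the 3 models overlaps another. Symbols and coordinates of all 3 match those that RefSeq lists for the assembly Trametes versicolor v1.0.

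TvLac7 had the highest mean level of the laccases in the 3-day controls and was lower under each of the aqueous phases, least under FW and most under AB. The control libraries held 206, 193 and 371 CPM (replicates 1 to 3), the FW libraries 90.8, 61.5 and 75.0 CPM, the SD libraries 8.37, 6.35 and 14.4 CPM, and the AB libraries 2.46, 1.33 and 1.69 CPM. No library of one group overlapped with a library of another, so that the order control, FW, SD, AB held for every pair of libraries. The share of all genes whose groups separate in this way was not counted. In whole pellets, fewer hyphae that express a gene and less transcript per hypha cannot be told apart.

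Against control, TvLac7 fell to 0.295 times the control level under FW (log2 fold change -1.76, SE 0.306, adjusted p = 0.000494), where it was the only called gene of the 3, against 45.8% of all genes. The level under SD was 0.0378 times that of the controls (-4.72, SE 0.352, adjusted p = 9.04e-06), again the only call among the 3, against 21.1% of all genes. Under AB the level was 0.00712 times that of the controls (-7.13, SE 0.410, adjusted p = 1.38e-08), the only call of the 3 where 62.4% of all genes were called. These comparisons share the control libraries.

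The steps between neighbours in this order were each larger than the spread between libraries. With FW the level of TvLac7 was 7.80-fold that with SD (2.96 on the log2 scale, SE 0.328, adjusted p = 7.19e-05), a comparison that called 1 of the 3 genes and 25.4% of all genes. With SD it was 5.31-fold that with AB (2.41, SE 0.373, adjusted p = 0.000132). Between FW and AB, the ends of the treated range, the difference was 41.5-fold (5.37, SE 0.387, adjusted p = 2.24e-07), with 1 of the 3 genes and 42.1% of all genes called. All 6 calls of TvLac7 at 3 days were kept with any 1 library of the compared groups left out.

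**Figure D1:**
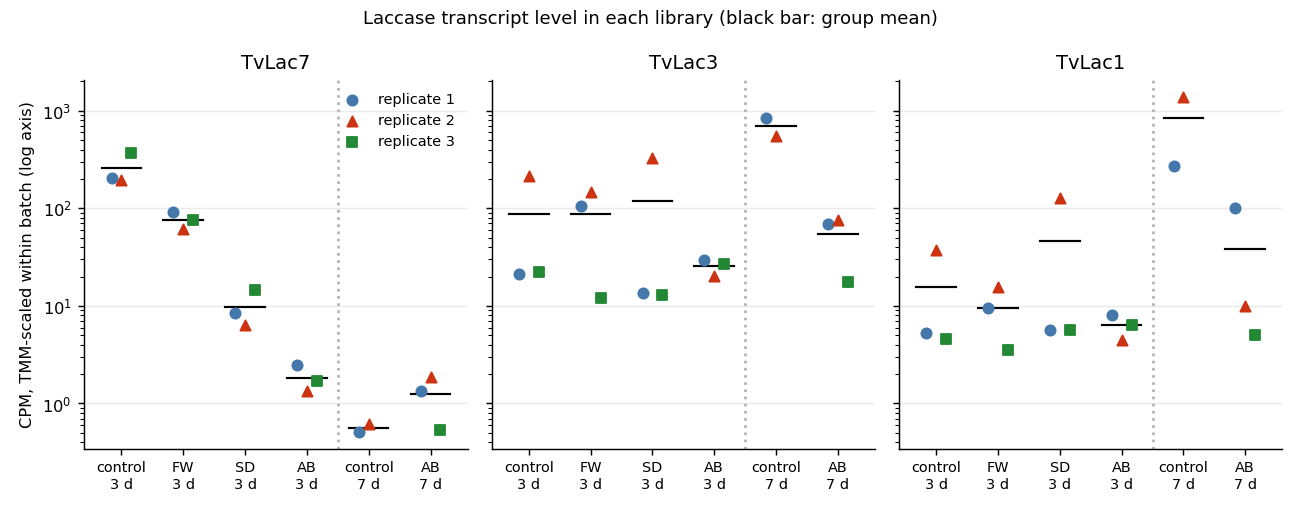
Level of TvLac7, TvLac3 and TvLac1 in each of the 17 libraries, in CPM on a log axis, by group; point shape and colour give the replicate number, black bars the group means, and the dotted line parts the 3-day from the 7-day batch. TvLac7 steps down from 257 CPM in the 3-day controls to 1.82 CPM under AB, while TvLac3 and TvLac1 differ within groups by up to 25.5-fold and 22.6-fold at 3 days.

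After 7 days TvLac7 was near the lower end of what was counted in all 5 libraries. The controls held 20 and 17 counts, or 0.511 and 0.619 CPM, and the AB libraries 43, 49 and 19 counts, or 1.34, 1.89 and 0.535 CPM. The exact 95% counting interval of control replicate 1 ran from 0.312 to 0.790 CPM and that of AB replicate 3 from 0.322 to 0.835 CPM, and the groups overlapped. TvLac7 was not called (log2 fold change 1.14, SE 0.663, 95% interval -0.46 to 2.75, adjusted p = 0.385).

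The 3-day controls held 2917 to 6288 TvLac7 counts per library at a lower depth, and after 7 days the level was low in treated and untreated pellets alike. The AB response of TvLac7 differed between the times by 8.26 on the log2 scale (SE 0.726, adjusted p = 2.89e-06). That comparison called 1 of the 3 genes and 27.9% of all genes, and the batch differed along with the time. With 20 and 17 counts in the 7-day controls, a fall of the 3-day size could not have been measured at 7 days.

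TvLac3 differed more between libraries of the same group than between groups at 3 days. The control libraries held 21.3, 216 and 22 CPM, the FW libraries 105, 147 and 12.1 CPM, the SD libraries 13.6, 327 and 12.8 CPM, and the AB libraries 29.3, 20.3 and 26.8 CPM. Replicate 2 was the highest library in control, FW and SD and the lowest in AB, FW replicate 1 was also high, and all 4 groups overlapped. The coefficient of variation was 130% in control, 78.4% in FW and 154% in SD, against 18.2% in AB.

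None of the differences of TvLac3 at 3 days was called. The mean levels were 86.4 ± 112 CPM in control, 88 ± 69.0 in FW, 118 ± 181 in SD and 25.5 ± 4.63 in AB (SD, n = 3). The log2 fold changes against control were 0.03 under FW (95% interval -2.51 to 2.57), 0.45 under SD (-2.09 to 2.99) and -1.76 under AB (-4.40 to 0.88). These intervals hold both a rise and a fall, and a difference of a few-fold was not detectable with this spread.

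TvLac1 had the same pattern of libraries at a lower level. Its control libraries held 5.23, 37.5 and 4.6 CPM, its FW libraries 9.55, 15.6 and 3.55 CPM, its SD libraries 5.65, 127 and 5.6 CPM, and its AB libraries 8.13, 4.52 and 6.34 CPM. Replicate 2 was again the highest in control, FW and SD and the lowest in AB, and all groups overlapped. Against control the log2 fold changes were -0.72 under FW (95% interval -3.06 to 1.63), 1.55 under SD (-0.75 to 3.86) and -1.31 under AB (-3.72 to 1.10), none of them called.

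Between SD and AB, TvLac1 was called higher in the SD libraries (2.86 on the log2 scale, SE 1.14, adjusted p = 0.0479), as was TvLac7. These were 2 of the 3 genes, where 54.2% of all genes were called. The TvLac1 call rested on 1 library: SD replicates 1 and 3 (5.65 and 5.6 CPM) lay within the AB range, and without SD replicate 2 the log2 fold change was -0.17 (adjusted p = 0.876). Without any 1 of the AB libraries the log2 fold change stayed at 2.67 to 3.08, with adjusted p-values of 0.0906 to 0.127.

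The spread of these 2 genes was among the largest of the data set. The biological coefficient of variation that edgeR assigned over the main libraries was 0.92 for TvLac3, rank 6 of 10838 genes, and 0.836 for TvLac1, rank 9, against a median of 0.169. For TvLac7 it was 0.270, rank 1311. In log2(CPM + 1), replicate 2 of the controls exceeded the mean of the other 2 controls by 3.26 for TvLac3 (rank 2 of 10838 genes) and by 2.71 for TvLac1 (rank 5).

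Under SD the same differences were 4.53 (rank 2) and 4.27 (rank 3), and under FW 1.99 (rank 3) and 1.26 (rank 35). A difference above 2 was found for 14 genes in control, 19 in SD and 2 in FW, and one below -2 for 3, 2 and 6 genes, and no gene passed either bound in AB, where TvLac3 and TvLac1 stood at -0.446 and -0.568. The control and SD sets shared 7 genes, among them TvLac3 and TvLac1. This measure was chosen after the values were seen. Replicate 2 of the controls was the main library with the fewest counts, 15459249, and the replicate 2 libraries of FW and SD held 16923906 and 17445128; the part of depth in the result was not tested.

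**Figure D2:**
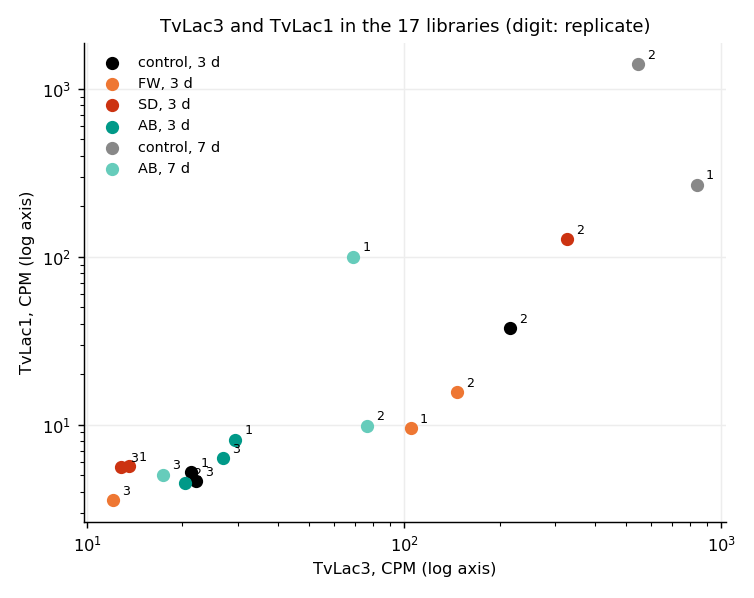
TvLac1 against TvLac3 in each of the 17 libraries, both in CPM on log axes; colour gives the group and the digit the replicate number. The libraries run from 12.1 CPM of TvLac3 and 3.55 CPM of TvLac1 in FW replicate 3 to the 7-day controls, and 4 of the main libraries (control 2, FW 1 and 2, SD 2) lie above 100 CPM of TvLac3.

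TvLac3 and TvLac1 were high and low in much the same 3-day libraries. Over the 12 main libraries Pearson's r of log2(CPM + 1) was 0.903, and 0.969 for deviations from the group means. These libraries fall into 4 with more than 100 CPM of TvLac3 and 8 with 12.1 to 29.3 CPM, and over the 8 low ones r was 0.597. The ratio of the genes was not fixed: per kilobase, TvLac3 exceeded TvLac1 by 2.31-fold to 2.60-fold in the SD libraries, 4.12-fold to 5.81-fold in control and 3.44-fold to 11.1-fold in FW. At 7 days TvLac1 exceeded TvLac3 in control replicate 2 and AB replicate 1, where the ratio of TvLac3 to TvLac1 was 0.396 and 0.699, and the highest ratio was 7.82. TvLac7 did not share the pattern, with an r of 0.16 against TvLac3 and -0.02 against TvLac1.

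**Figure D3:**
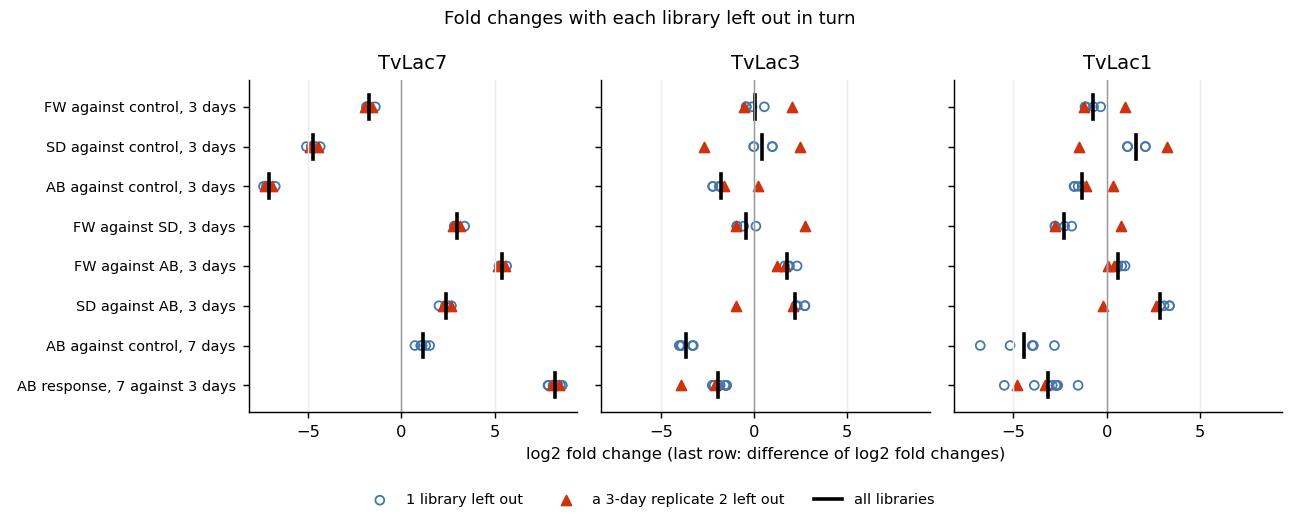
Log2 fold change of each laccase in the 8 comparisons with all libraries (black bar) and with 1 library of the compared groups left out (circles; red triangles where that library is a 3-day replicate 2). The last line is the 7-day AB response minus the 3-day one. The TvLac7 values stay close together, whereas TvLac3 under SD against control runs from -2.70 to 2.44.

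The direction of several 3-day differences of TvLac3 and TvLac1 turned when a single library was left out. For TvLac3 under FW against control, where the log2 fold change was 0.03, this held for control replicates 1 and 3 and FW replicates 1 and 2, with values of -0.52 to -0.11. For TvLac3 under FW against AB the value was above 0 in all 13 alternatives (0.98 to 2.31), without a call in any. For TvLac3 under SD against control the log2 fold change was 2.44 without control replicate 2 and -2.70 without SD replicate 2, and for TvLac1 it was 3.22 and -1.46. Under AB against control the values without control replicate 2 were 0.23 for TvLac3 and 0.36 for TvLac1. With all replicate 2 libraries of the main batch left out, an alternative added after the data were seen, TvLac3 was at 1.46 under FW (adjusted p = 0.113), -0.69 under SD (adjusted p = 0.526) and 0.40 under AB (adjusted p = 0.632).

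After 7 days both genes were abundant in the controls, and TvLac3 was called lower with AB while TvLac1 was not called. TvLac3 held 838 and 548 CPM in the controls and 69.2, 76.3 and 17.4 CPM in the AB libraries, so that the groups did not overlap. With 2 and 3 libraries such a separation is weak evidence by itself, and its share over all genes was not counted. TvLac3 fell to 0.0784 times the control level (log2 fold change -3.67, SE 0.678, adjusted p = 0.0453). This was 1 of the 3 genes, in a comparison that called 3.28% of all genes.

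The TvLac3 call was lost without any 1 of the 5 libraries, with adjusted p-values of 0.0515 to 0.192 and log2 fold changes of -4.01 to -3.26. A fit without 1 of the controls rests on a lone control, whose spread is assumed to be that of the AB group. TvLac1 held 269 and 1397 CPM in the controls and 100, 9.86 and 5.04 CPM in the AB libraries, with a 19.9-fold range among the AB libraries. It was not called (log2 fold change -4.44, SE 1.42, 95% interval -7.87 to -1.02, adjusted p = 0.150), and was called without AB replicate 1 (-6.78, adjusted p = 0.0336).

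The AB responses of TvLac3 and TvLac1 were not called as different between the times. The differences on the log2 scale were -1.93 for TvLac3 (95% interval -5.58 to 1.72, adjusted p = 0.434) and -3.14 for TvLac1 (-7.10 to 0.83, adjusted p = 0.228). With the main replicate 2 libraries left out, the TvLac3 difference was -4.02 (adjusted p = 0.0304), and without 7-day AB replicate 1 the TvLac1 difference was -5.49 (adjusted p = 0.0376).

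**Figure D4:**
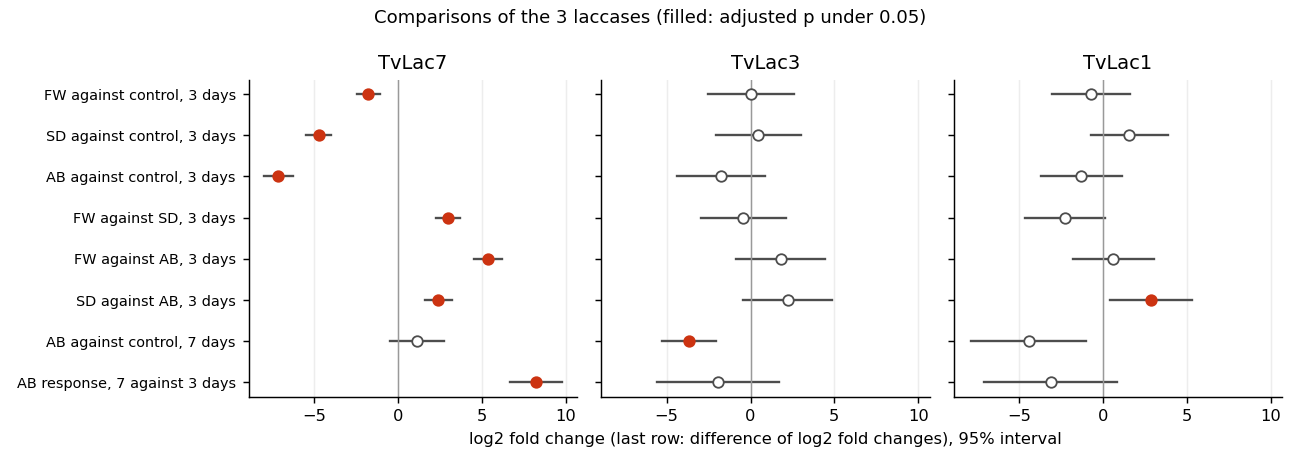
Log2 fold change of each laccase in the 8 comparisons with its 95% interval, filled where the adjusted p is under 0.05; the last line is the 7-day AB response minus the 3-day one. TvLac7 is filled in every comparison but AB against control at 7 days, TvLac3 only in that one and TvLac1 only for SD against AB, both calls that are lost when single libraries are left out.

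The order of the groups by mean level thus differed between the genes. For TvLac7 it ran from the 3-day controls (257 CPM) over FW (75.8), SD (9.70), AB at 3 days (1.82) and AB at 7 days (1.26) to the 7-day controls (0.565). For TvLac3 it ran from the 7-day controls (693 CPM) over SD (118), FW (88), the 3-day controls (86.4) and AB at 7 days (54.3) to AB at 3 days (25.5), and for TvLac1 from the 7-day controls (833) over SD (46.0), AB at 7 days (38.3), the 3-day controls (15.8) and FW (9.56) to AB at 3 days (6.33). These means are scaled within each batch. On the scale shared by all libraries SD and AB at 7 days change places for TvLac1, at 41.4 and 48.7 CPM, and the orders of TvLac7 and TvLac3 are the same. Neighbours in the order were not called as different for TvLac3 and TvLac1 wherever they were compared within a batch.

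Per kilobase of model, the summed level of the 7 TvLac genes was 258 ± 77.9 CPM per kb in the 3-day controls, 132 ± 50.3 in FW, 127 ± 159 in SD and 49.4 ± 19.0 in AB (SD, n = 3). TvLac7 made up 76.7%, 38.2% and 87.1% of that sum in the 3 control libraries, and 2.24% to 2.54% in the AB libraries at 3 days. In SD replicate 2 the sum was 311 CPM per kb, of which TvLac3 held 64.1% and TvLac1 24.6%, whereas the other 2 SD libraries had sums of 33.0 and 36.8. The high SD library thus owed its sum to TvLac3 and TvLac1 and not to TvLac7, which held 1.32%.

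After 7 days the sums were 931 and 1583 CPM per kb in the controls and 463, 350 and 42.0 with AB. TvLac3 and TvLac1 together led the controls, with 54.9% and 17.4% in replicate 1 and 21.1% and 53.2% in replicate 2. With AB the leading laccase was TvLac2, which held 74.7%, 81.7% and 46.2% of the sum. TvLac7 held at most 0.823% in any 7-day library.

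**Figure D5:**
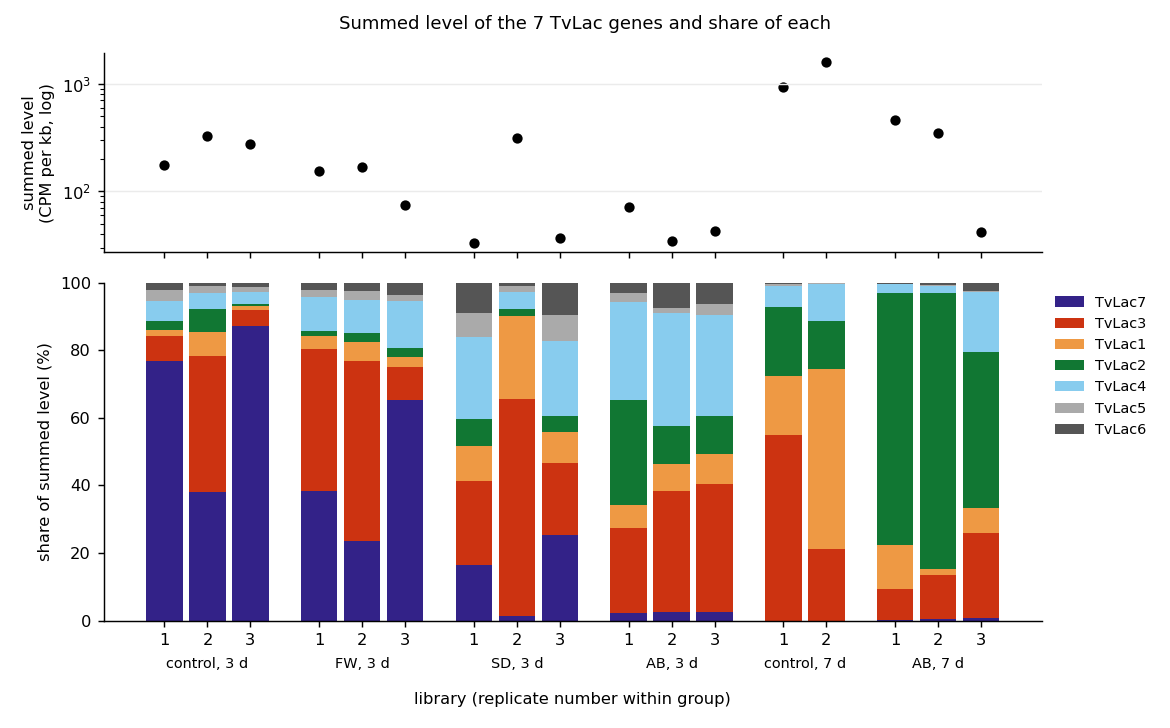
Summed level of the 7 TvLac genes in each library, in CPM per kilobase on a log axis (top), and the share of each gene in that sum, in percent (bottom), by group and replicate. TvLac7 leads the sum in control replicates 1 and 3 at 3 days (76.7% and 87.1%), TvLac3 leads it in SD replicate 2 (64.1%), and TvLac2 leads it in all AB libraries at 7 days.

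The list of laccases and multicopper oxidases, taken by symbol, held the 7 TvLac genes and TvFet3A, named for the Fet3 iron oxidase, and all 8 were tested. Under FW and under SD 1 of 8 fell, TvLac7, and none rose, where 23.4% and 10.9% of all genes were called lower. The median log2 fold changes of the list were -0.46 and -0.41, against -0.01 over all genes in each. Under AB at 3 days 4 of 8 fell and none rose, where 32.6% of all genes were called lower and 62.4% were called in either direction. The median was -1.53, against -0.06 over all genes. Beside TvLac7 these were TvLac5 (log2 fold change -2.12, adjusted p = 0.000999), TvFet3A (-1.77, adjusted p = 0.0215) and TvLac6 (-0.52, adjusted p = 0.0286).

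Replicate 2 was also the highest library of both control and SD at 3 days in TvLac2, TvFet3A, TvLac4 and TvLac5. The share of all genes with this pattern was not counted. TvLac2 held 7.87, 38.0 and 3.18 CPM in the 3-day controls and 4.42, 11.6 and 2.98 CPM in SD, and TvFet3A 24.6, 68.8 and 28.5 CPM and 9.45, 34.7 and 10.1 CPM. TvLac4 had a smaller range, at 15.8, 24.2 and 14.9 CPM and 12.5, 24.3 and 12.8 CPM. TvLac5 held 9.08, 9.86 and 7.01 CPM in the controls and 3.75, 8.35 and 4.52 CPM in SD. The levels of TvLac6 were even, at 5.72, 5.82 and 5.25 CPM in the controls and 4.57, 4.92 and 5.40 CPM in SD.

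At 7 days 3 of 8 genes of the list fell with AB, TvLac3, TvLac4 and TvLac5, and none rose, where 2.4% of all genes were called lower. The median was -2.46, against -0.01 over all genes. TvLac4 fell by 3.69 on the log2 scale (SE 0.537, adjusted p = 0.0266), from 93.0 and 270 CPM to 19.0, 11.4 and 11.7 CPM. TvLac5 fell by 4.11 (SE 0.526, adjusted p = 0.0193), from 4.73 and 4.91 CPM to 0.311, 0.387 and 0.141 CPM. These AB values rest on 10, 10 and 5 counts. The TvLac4 and TvLac5 calls were both lost without control replicate 2, in a fit that rests on a lone control. Whether they are kept without another library was not examined. TvLac2 was not called (0.06, adjusted p = 0.983), at 320 and 384 CPM in the controls and 584, 482 and 32.7 CPM with AB. Over all genes the number of 7-day calls ran from 0 to 689 with 1 library left out, beside 334 with all 5. The 0 came without control replicate 2, where edgeR gave 1661 genes an unadjusted p under 0.05.

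The AB response differed between the times for TvLac4 (-4.05 on the log2 scale, SE 0.577, adjusted p = 0.000141) and TvLac5 (-2.02, SE 0.7, adjusted p = 0.0430) as well as for TvLac7. For TvLac5 the 7-day AB libraries held only 5 to 10 counts. The heme peroxidases, the other enzymes of lignin oxidation with symbols, had 14 of 29 tested genes called higher and 3 lower under FW, where 45.8% of all genes were called. They had 8 higher and 2 lower under SD (21.1% of all genes called). Under AB at 3 days 6 were higher and 13 lower (62.4%). At 7 days, of 22 tested, 0 were higher and 2 lower (3.28%). These shares count calls in either direction. Of the 10838 genes tested at 3 days, 2432 were called higher and 2531 lower under FW. The counts were 1111 and 1180 under SD, and 3228 and 3531 under AB. At 7 days they were 89 and 245 of 10192 genes.

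The genes most like each laccase were taken by Pearson's r of log2(CPM + 1) over the 12 main libraries, among the 6662 genes whose mean reached 10 CPM. For TvLac7 they were gene_11408 (r = 0.963), TRAVEDRAFT_70376 (0.962) and TRAVEDRAFT_152734 (0.956). TRAVEDRAFT_70376 held 25.5, 26.9 and 37.9 CPM in control and 2.65, 1.93 and 2.11 CPM under AB, a log2 fold change of -3.75 (adjusted p = 8.53e-08). Because the gene was chosen over these same libraries, its fall is no separate support for that of TvLac7. For deviations from the group means r with TvLac7 was 0.727, 0.846 and 0.05 for the 3 genes, and over the 5 preliminary libraries -0.31, -0.36 and -0.82.

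For TvLac3 the most like genes were TRAVEDRAFT_70408 (r = 0.940), TRAVEDRAFT_28588 (0.939) and TRAVEDRAFT_55806 (0.933), and TvLac1 came at rank 6. TRAVEDRAFT_70408 (scaffold 3, 3382375 to 3383459) held 17.7, 155 and 8.19 CPM in control, 184, 185 and 9.05 CPM in FW, 2.93, 255 and 4.52 CPM in SD and 10.5, 2.23 and 7.55 CPM under AB. It was high in the same 4 main libraries as TvLac3, which follows from its choice by r over these libraries. After 7 days it held 740 and 1847 CPM in the controls and 284, 15.0 and 4.39 CPM with AB, and its r with TvLac3 over these 5 libraries was 0.875, against 0.568 for TRAVEDRAFT_28588 and 0.17 for TRAVEDRAFT_55806.

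TRAVEDRAFT_55806 followed TvLac3 with a far smaller range, 476 to 622 CPM over the main libraries. For TvLac1 the most like gene of all was TvLac3 (0.903), before TRAVEDRAFT_55806 (0.888) and TRAVEDRAFT_34378 (0.863), and over the 5 preliminary libraries the r of TvLac1 with these genes was 0.864, 0.438 and -0.207.

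Of the 3 gene models on either side of TvLac7, 4 could be tested. TRAVEDRAFT_47316, on the higher side, was called higher under FW (log2 fold change 0.73) and AB at 3 days (0.72). TvLac6, the nearest other laccase, ends 3906 bases before TvLac7 and had log2 fold changes of -0.13, -0.17 and -0.52 under FW, SD and AB, of which the last was called. TRAVEDRAFT_167576, which lies between them, rose at 3 days under all 3 phases by log2 fold changes of 1.41, 1.73 and 1.48 (adjusted p = 0.00346, 0.00308 and 0.00155). Its level went from 60.9 ± 16 CPM in control to 162 ± 76.6, 202 ± 65.2 and 169 ± 28.9 CPM (SD, n = 3). The 7-day controls held 14.4 and 4775 CPM of it. With AB at 7 days it was not called (log2 fold change -2.26, adjusted p = 0.484).

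Around TvLac3 all 6 neighbours were tested, with log2 fold changes at 3 days against control between -0.90 and 1.13. Under FW 2 were called lower, and under SD 1 (45.8% and 21.1% of all genes called). Under AB 2 were called higher and 2 lower (62.4%). None was called at 7 days, where 3.28% of all genes were called. Around TvLac1 4 of 6 were tested. TRAVEDRAFT_41570, 12011 bases away on the higher side, was called higher under FW (log2 fold change 2.31) and SD (1.54). Its mean in the 3-day controls was 1.23 CPM. TRAVEDRAFT_158109, 2351 bases away on the lower side, was called lower under FW (-0.65) and AB at 3 days (-0.57). TRAVEDRAFT_68021, which ends 4400 bases before TvLac1, fell with AB after 7 days from 176 ± 88.8 (SD, n = 2) to 8.64 ± 5.78 CPM (SD, n = 3; log2 fold change -4.35, adjusted p = 0.0355). This 7-day comparison called 3.28% of all genes. The call of TRAVEDRAFT_68021 was lost without control replicate 2, in a fit that rests on a lone control. At 3 days TRAVEDRAFT_68021 held between 6.20 and 10.5 CPM on average in the 4 groups, and was called higher under SD against control (0.75).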

How the data were processed

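The authors deposited raw counts of reads for each gene model, with no scaling. Per the submitters' processing notes, HISAT2 and featureCounts were used. Versions, build, strand setting and how reads with several matches were treated: not given in the sources used here, so reads of similar laccase genes may be shared between them. Gene length in bases is as deposited. Of 14296 models 14214 matched RefSeq by start and end. Samples follow the treatment labels, and titles call them biological replicates; p-values measure the spread between these samples.

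Genes were tested with edgeR 4.0.16 in R 4.3.3 (TMM, default filter by group, quasi-likelihood F test, two-sided, Benjamini-Hochberg adjustment over all genes tested): 10838 genes in 12 main libraries, 10192 in 5 preliminary libraries, and 11057 in all 17 for the difference between the times. SE is the absolute log2 fold change divided by the square root of F. Intervals use the t distribution with 13.1, 6.33 and 15.1 degrees of freedom; counting intervals are exact Poisson and cover counting error only. The test was run on simulated data with known changes. It recovered most of a moderate size at 3 days, but none of that size in the 7-day design. There it recovered only much larger ones, so that a gene not called at 7 days may still differ. Changes were placed only in genes above a minimum mean level. TvLac7 did not reach that level at 7 days, so these runs do not cover it there.

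The genes and lists were chosen with earlier results of these data known. Other genes named are family members by symbol, 3 neighbours on each side, and the 3 most correlated genes of each laccase. A search of proteins for copper-ligand motifs was planned and not run. Other settings tried were DESeq2 1.42.0, RLE scaling in edgeR, a 1 CPM filter or none, the compared groups alone, a replicate block and each library left out in turn.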

Additional observations from a re-analysis of the deposited data

Results flagged for a closer look

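The AB response of TvLac7 differed between 7 and 3 days by 8.26 on the log2 scale, by a test of the difference itself (SE 0.726, adjusted p = 2.89e-06, edgeR). The 3-day response was -7.13 and the 7-day response 1.14, and the 7-day controls held 17 and 20 counts of TvLac7. From so few counts a fall of the 3-day size could not have been measured at 7 days. Batch and time cannot be told apart here.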

How the results depend on the processing

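TvLac7 kept its direction and its side of the threshold in all 105 alternatives over the 8 comparisons. At 3 days TvLac3 and TvLac1 changed direction with single libraries left out. The ranges for TvLac3 were -0.52 to 2.02 under FW, -2.70 to 2.44 under SD and -2.22 to 0.23 under AB against control, -0.97 to 2.75 for FW against SD and -0.95 to 2.73 for SD against AB. For TvLac1 they were -1.21 to 0.96, -1.46 to 3.22, -1.75 to 0.36, -2.77 to 0.77 and -0.17 to 3.37 in the same order. At 7 days they were -4.01 to -3.26 for TvLac3 and -6.78 to -2.80 for TvLac1, and -5.49 to -1.53 for the time difference of TvLac1. With all main replicate 2 libraries left out, a setting added after seeing the data, TvLac3 was at -0.69 under SD, 0.40 under AB, 2.15 for FW against SD, -1.09 for SD against AB and -4.02 for the time difference, and TvLac1 at 0.44 under FW, 0.59 under AB, 0.22 for FW against SD, -0.14 for FW against AB and -0.36 for SD against AB. The TvLac1 call for SD against AB was lost with the compared groups alone (2.85, adjusted p = 0.0537). DESeq2 called TvLac1 at 7 days (-4.42, adjusted p = 0.00255) and 1343 genes in all, against 334. Calls ran from 1361 to 2379 for SD against control and from 0 to 689 at 7 days with 1 library left out; the 0 came without control replicate 2, where edgeR had 1661 genes at an unadjusted p under 0.05. Where no value above names a library, the cause was not tested.

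Replicate numbers did not meet the bar for pairing, a correlation of deviations over 0.1 in every same-number pair: 7 of 18 pairs of main libraries had one, and 5 of 12 libraries correlated best with their own number. Replicates 2 and 3 of control, FW and SD did, at 0.234 to 0.451 in 6 of 6 pairs. This subset leaves out replicate 1 and AB, where same-number pairs went down to -0.245. Because it leaves out the pairs that failed, it is no test of pairing. With a replicate block, TvLac3 for FW against SD was 0.53, TvLac1 for SD against AB was 1.39 (adjusted p = 0.172), TvLac3 at 7 days was -3.22 (adjusted p = 0.1), and 91 genes were called at 7 days; no other call of the 3 genes changed. Low counts limit TvLac7 at 7 days, with 17 to 49 per library.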
